A study of Mus musculus with 3 samples.

Results

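The 10 genes described here are chemotactic signals measured in mouse mesenteric lymph node, namely the ligands Ccl5, Ccl22, Ccl17, Ccl3, Ccl4, Ccl6, Cxcl9, Cxcl10 and Cxcl16, and the receptor Cxcr3. They were picked by symbol, and all 10 were found among the 32285 annotated genes. Single-cell RNA was sequenced from 3 libraries, each a pool of mesenteric lymph nodes from 6 mice fed orally for 4 weeks. The LysoPS-OVA mice received 1 µg of ovalbumin (OVA, the egg-white model antigen) with lyso-phosphatidylserine, a lipid that the study delivered as nanoparticles. The free OVA mice received 1 µg of ovalbumin alone, and the citrate buffer mice received 5 mM citrate buffer. Strain, sex and age are not given in the sources used here, and the labels call the cells intestinal although the tissue is lymph node. With 1 pooled library per feeding there is no replicate, so no test was possible and no p-value is given. Every 95% interval below is an exact Poisson, binomial or ratio interval that covers counting error only.

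Chemokines are small secreted proteins that draw leukocytes along concentration gradients and signal through G protein-coupled receptors. Ccl3 and Ccl5 bind Ccr1, and Ccl17 and Ccl22 are the ligands of Ccr4. Cxcl9 and Cxcl10 are interferon-gamma-induced ligands of Cxcr3, and Cxcl16 is a transmembrane or shed ligand of Cxcr6. In lymph nodes, mature dendritic cells that arrive from the gut through lymph are known producers of Ccl17 and Ccl22, while Ccl5 is a product of memory CD8 T cells and natural killer (NK) cells as well as of dendritic cells.

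The libraries held 84089686 unique molecular identifiers (UMIs) in 20873 barcodes for LysoPS-OVA, 81559237 UMIs in 28660 barcodes for free OVA and 96616683 UMIs in 28927 barcodes for citrate buffer. After filters on detected genes, mitochondrial share and doublets, 16025, 21949 and 21871 barcodes were kept in that order. Each kept count is above the 10000 cells loaded per library, so not every kept barcode can be a separate loaded cell. Which barcodes are not was not tested. Between 166 and 194 barcode sequences were shared by each pair of libraries. Barcodes were sorted into gates, that is, classes set by marker genes that include none of the 10 genes. No gate was assigned to 24.8% of kept barcodes in the LysoPS-OVA library, 44.7% in free OVA and 40.2% in citrate buffer. Further barcodes had markers of a T cell, myeloid or stromal lineage but of none of the cell types below. They count as gated and are not described. Levels are a gate's summed UMIs of a gene per 1000000 UMIs of that gate (CPM), and log2 ratios were taken after adding 10 CPM.

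By position in the mouse genome (GRCm38, GENCODE annotation), several of the ligands are neighbours. Ccl22 at chr8:94745590-94751699 and Ccl17 at chr8:94810453-94812036, both on the plus strand, flank Cx3cl1. Ccl3 (chr11:83647844-83649355, minus strand) and Ccl4 (chr11:83662584-83664683, plus strand) are 13229 bp apart. Ccl5 (chr11:83525778-83530518) and Ccl6 (chr11:83587882-83593087), both on the minus strand, are on the same chromosome, as is Cxcl16 (chr11:70453983-70459984, minus strand). Cxcl9 (chr5:92321347-92328079) and Cxcl10 (chr5:92346638-92348889), both on the minus strand, are 18559 bp apart, and Cxcr3 is at chrX:101731535-101734269 on the minus strand. Of the 10 genes, 3 overlap a gene on the opposite strand (Ccl6 with E230016K23Rik, Cxcl10 with Art3, Cxcl16 with Zmynd15), and whether counting used the strand is not given in the sources used here, so reads of those pairs may not be separable.

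RefSeq promoter windows (GRCm38.p6, 250 bases before to 50 after the gene start) were held for 7 of the 10 genes. The windows below are shown for the dendritic cell ligand pair Ccl22 and Ccl17 and the interferon-gamma-induced pair Cxcl9 and Cxcl10, since the members of each pair are compared later. Capitals mark matches to a kappaB-type motif (GGGANTTNC), an interferon-stimulated response element type motif (a pair of GAAA sites with any 2 bases between them) or an interferon-gamma activated site type motif (TTCNNNGAA), each searched on both strands.
Ccl22, chr8:94745434-94745733, plus strand: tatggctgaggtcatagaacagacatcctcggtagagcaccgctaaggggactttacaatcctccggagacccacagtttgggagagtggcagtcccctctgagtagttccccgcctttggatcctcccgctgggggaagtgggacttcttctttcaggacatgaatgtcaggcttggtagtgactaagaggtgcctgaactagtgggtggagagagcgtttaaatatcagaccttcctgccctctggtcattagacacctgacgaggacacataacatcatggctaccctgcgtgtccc
Ccl17, chr8:94810203-94810502, plus strand: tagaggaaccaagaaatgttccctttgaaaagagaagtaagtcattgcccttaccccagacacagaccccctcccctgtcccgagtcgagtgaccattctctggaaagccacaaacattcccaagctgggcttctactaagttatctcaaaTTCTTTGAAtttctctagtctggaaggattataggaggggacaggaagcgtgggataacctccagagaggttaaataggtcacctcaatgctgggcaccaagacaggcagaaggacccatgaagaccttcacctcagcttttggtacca
Cxcl9, chr5:92328030-92328329, minus strand: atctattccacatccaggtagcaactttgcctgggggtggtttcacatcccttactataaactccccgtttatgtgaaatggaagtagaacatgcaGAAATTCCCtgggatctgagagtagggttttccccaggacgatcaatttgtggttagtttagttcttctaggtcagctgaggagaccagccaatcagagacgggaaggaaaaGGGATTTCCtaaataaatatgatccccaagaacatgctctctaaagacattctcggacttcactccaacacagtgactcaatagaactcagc
Cxcl10, chr5:92348840-92349139, minus strand: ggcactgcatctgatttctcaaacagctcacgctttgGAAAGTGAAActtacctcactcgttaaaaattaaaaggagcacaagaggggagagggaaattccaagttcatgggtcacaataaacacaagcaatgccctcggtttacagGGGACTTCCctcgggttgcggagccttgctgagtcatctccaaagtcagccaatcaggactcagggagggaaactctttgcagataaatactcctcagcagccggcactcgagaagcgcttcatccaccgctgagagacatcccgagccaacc
The Cxcl9 window held 2 kappaB-type matches, starting 154 and 42 bases before the gene start, the first of them on the opposite strand. The Cxcl10 window held 1 kappaB-type match 103 bases and 1 interferon-stimulated type match 213 bases before the start. Among the 32851 windows of this length, 4.26% held the kappaB-type letters, 3.44% the interferon-stimulated type and 8.30% the interferon-gamma activated site type. The Ccl17 window held 1 activated site type match 99 bases before its start, and the Ccl22 window held none of the 3 motifs. No capital overlapped another, and a match describes letters only. The other 3 windows (Ccl3, Ccl6 and Cxcr3) held no match and are not printed.

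The 10 genes differed in the gates where they were highest. Ccl5, Ccl22, Ccl17, Ccl6 and Cxcl16 had most of their gated UMIs in the migratory dendritic cell gate, except Ccl6 in citrate buffer. Among gates of 50 barcodes or more, Cxcl9 was highest in type 1 conventional dendritic cells (cDC1) and Cxcl10 in macrophages. Ccl3, Ccl4 and Cxcr3 were sparse and are described below with the T and NK cells. The migratory gate held 63.6% of gated Ccl5 UMIs in LysoPS-OVA, 81.5% in free OVA and 65.9% in citrate buffer. For Ccl22 these shares were 81.7%, 90.3% and 82.3%, for Ccl17 90.3%, 93.5% and 87.0%, and for Cxcl16 84.3%, 87.6% and 80.6%, in the same order of libraries. Ccl6 had 72.1% and 76.4% of its gated UMIs there after LysoPS-OVA and free OVA feeding, against 45.9% after citrate buffer. Gated UMIs here include those of barcodes with a lineage but none of the cell types described. Such shares depend on the size of a gate as well as on level, and the Ccl6 level was not particular to the migratory gate, as given below. Of kept Ccl5 UMIs, 44.7% (LysoPS-OVA), 35.6% (free OVA) and 47.4% (citrate buffer) were in barcodes with no gate and are not described. For Cxcl9 these shares were 43.6%, 41.0% and 50.7%, and for Cxcl10 35.5%, 49.8% and 36.9%.

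**Figure D1:**
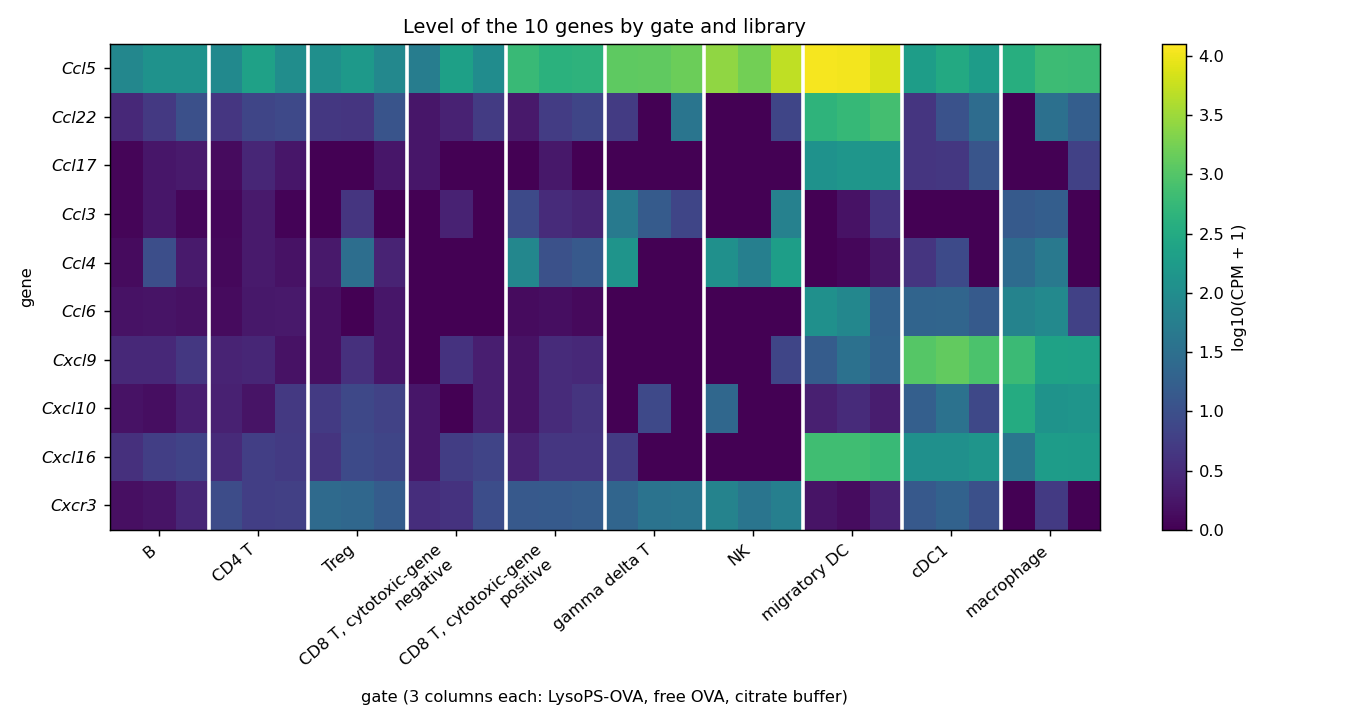
Level of each of the 10 genes in 10 gates, as log10(CPM + 1) by colour; each gate has 3 columns, LysoPS-OVA, free OVA and citrate buffer. The brightest cells are Ccl5 in migratory dendritic cells (11165, 10544 and 7243 CPM), and Cxcl9 is brightest in cDC1.

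The migratory dendritic cell gate held 821 barcodes in LysoPS-OVA, 2383 in free OVA and 1328 in citrate buffer, chosen by Fscn1, Cacnb3, Nudt17, Socs2 and Il4i1. The 5 migratory markers outside the gate (Ccr7, Tmem123, Relb, Samsn1 and Birc3) summed to 4398 CPM in LysoPS-OVA, 3847 CPM in free OVA and 3355 CPM in citrate buffer, against 850, 792 and 810 CPM in B cells of those libraries. The label of these barcodes thus held by markers that did not choose them. Their depth was low, at a median of 1531, 1804 and 1755.5 UMIs, and Malat1, an abundant nuclear RNA, was under 0.5% of UMIs in 88.6%, 91.1% and 85.5% of them in the same order of libraries. The share of B cell barcodes under 0.5% Malat1 was 5.48%, 21.9% and 11.3%. The part of this in the values below was not tested beyond the whole-cell-like barcodes given beside them (Malat1 at 0.5% or more and ribosomal protein transcripts at 10% or more).

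Ccl5, a ligand of Ccr1 and Ccr3 that attracts T cells and monocytes, had 11165 CPM in migratory dendritic cells of LysoPS-OVA (95% interval 10999.6 to 11333), 10544 CPM in free OVA (10455 to 10633) and 7243 CPM in citrate buffer (7142 to 7344). Both ovalbumin libraries lay above the citrate buffer library, and the intervals of all 3 were apart. These levels rest on 17295, 53988 and 19860 UMIs, of which the 5 highest barcodes held no more than 6.74%. LysoPS-OVA was 1.54-fold above citrate buffer (1.51 to 1.57), which only just passed the 1.5-fold limit used here, and 1.06-fold above free OVA (1.04 to 1.08). Free OVA over citrate buffer was 1.46-fold (1.43 to 1.48), within the limit. The call against citrate buffer was lost with a stricter gate (log2 0.54, against 0.62) and under each of 3 other gate rules (0.56 to 0.58), which were tried before the rule used here, all of them after the data were seen. In whole-cell-like barcodes LysoPS-OVA over citrate buffer was 0.66 on the log2 scale, while free OVA over citrate buffer was −0.02.

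The share of migratory dendritic cell barcodes with Ccl5 did not follow the level. After thinning each barcode to 1000 UMIs, Ccl5 was found in 83.9% of 664 barcodes in LysoPS-OVA (95% interval 80.9 to 86.6%), 83.5% of 2092 in free OVA (81.8 to 85.0%) and 83.7% of 1236 in citrate buffer (81.6 to 85.8%). The 3 intervals overlapped. Thinning left out 157, 291 and 92 shallower barcodes; without it, 727 of 821, 2081 of 2383 and 1177 of 1328 barcodes had a Ccl5 UMI.

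Ccl22, a Ccr4 ligand that draws regulatory and other CD4 T cells to dendritic cells, was lower after LysoPS-OVA feeding. Migratory dendritic cells had 458 CPM in LysoPS-OVA (425 to 493), 558 CPM in free OVA (538 to 579) and 762 CPM in citrate buffer (730 to 796). The 3 libraries stood apart, in the reverse of the order of Ccl5. The level in LysoPS-OVA was 0.60-fold that in citrate buffer (0.55 to 0.65), past the limit, with 709 UMIs against 2090. It was 0.82-fold that in free OVA (0.75 to 0.89), and free OVA was 0.73-fold citrate buffer (0.69 to 0.78), both within the limit. After thinning, 28.3% of barcodes had Ccl22 in LysoPS-OVA (24.9 to 31.9%), 28.6% in free OVA (26.7 to 30.6%) and 38.1% in citrate buffer (35.4 to 40.9%), so both detection and level were highest in citrate buffer. In B cells, which should lack Ccl22 and had median depths of 4351, 4758 and 3473 UMIs, the thinned shares were 0.221%, 0.389% and 0.881%, and the levels 2.01, 3.80 and 9.17 CPM.

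Ccl17, the other Ccr4 ligand, had 121 CPM in migratory dendritic cells of LysoPS-OVA (104 to 139), 140 CPM in free OVA (130 to 151) and 134 CPM in citrate buffer (121 to 149). All 3 intervals overlapped. LysoPS-OVA over citrate buffer stood at 0.90-fold (0.75 to 1.08), so a difference in either direction up to these bounds could not be resolved by counting alone. Few barcodes carried the gene: the 5 highest held 36.9% of 187 UMIs in LysoPS-OVA, 31.9% of 718 in free OVA and 19.8% of 368 in citrate buffer. In whole-cell-like barcodes Ccl17 had 2 UMIs in LysoPS-OVA against 18 in citrate buffer.

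Ccl6, a ligand of Ccr1 made by rodent myeloid cells, showed the largest ratio among the 5 genes measurable in migratory dendritic cells. It had 115 CPM in LysoPS-OVA (98.7 to 133) and 77.9 CPM in free OVA (70.5 to 86.0), against 18.2 CPM in citrate buffer (13.5 to 24.04). Both ovalbumin libraries were thus far above the buffer library. The gene was seen in 97, 200 and 38 barcodes, with 178, 399 and 50 UMIs. LysoPS-OVA was 6.30-fold above citrate buffer (4.58 to 8.81) and free OVA 4.27-fold above it (3.18 to 5.86), both past the limit. Between LysoPS-OVA and free OVA the ratio was 1.47 (1.23 to 1.76), within the limit. After thinning, Ccl6 was found in 8.28% of barcodes in LysoPS-OVA, 5.50% in free OVA and 1.86% in citrate buffer, against at most 0.110% of B cells in any library. Whole-cell-like barcodes had 8 Ccl6 UMIs in LysoPS-OVA and 1 in citrate buffer, too few to size a ratio.

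Ccl6 was also seen in other myeloid gates, on few counts. Macrophages had 66.4 CPM of Ccl6 in LysoPS-OVA (5 UMIs) and 84.0 CPM in free OVA (21 UMIs), against 5.31 CPM in citrate buffer (1 UMI). In cDC1 the levels were 19.7, 20.9 and 13.3 CPM on 6, 17 and 6 UMIs, with intervals that overlapped throughout. Type 2 conventional dendritic cells had 6 UMIs in LysoPS-OVA, 25 in free OVA and 2 in citrate buffer, in gates of 14, 38 and 20 barcodes. Their levels were 103, 149 and 32.7 CPM, against 115, 77.9 and 18.2 CPM in migratory dendritic cells. By level, then, the migratory gate was not the highest for Ccl6 in free OVA or citrate buffer.

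Cxcl16, the ligand of Cxcr6 that dendritic cells hold on their surface, stayed within the limit in all 3 comparisons of the migratory gate. Its level in migratory dendritic cells was 683 CPM in LysoPS-OVA (642 to 726), 686 CPM in free OVA (663 to 709) and 593 CPM in citrate buffer (565 to 623). Both ovalbumin libraries overlapped, and LysoPS-OVA was 1.15-fold citrate buffer (1.06 to 1.24), within the limit. Thinned shares were 45.5%, 44.9% and 41.4%. In cDC1 Cxcl16 stood at 115, 113 and 136 CPM, again with overlapping intervals.

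**Figure D2:**
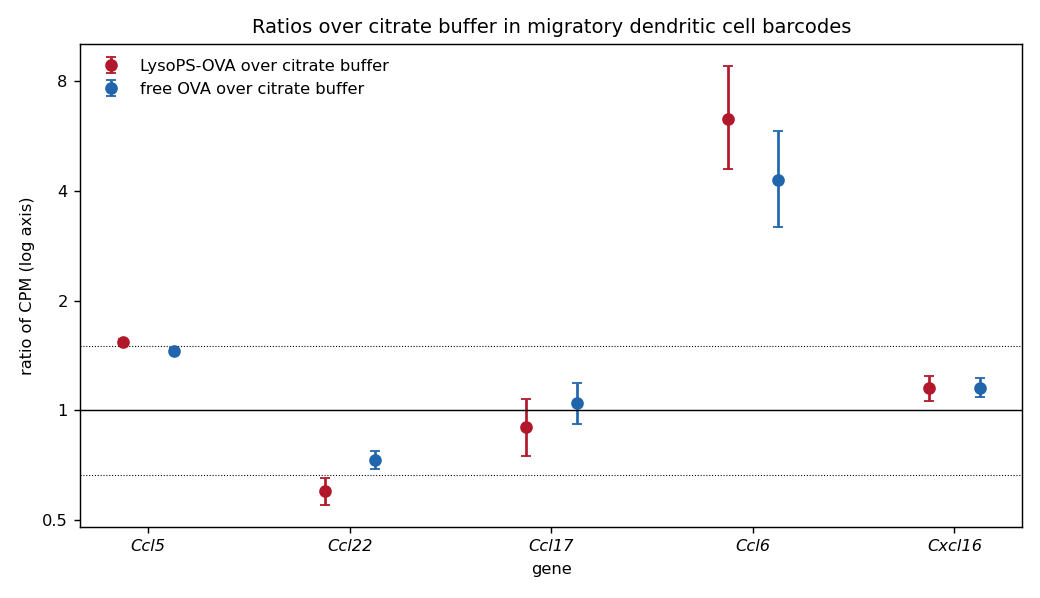
Ratio of CPM over citrate buffer (log axis) for 5 genes in migratory dendritic cell barcodes, LysoPS-OVA in red and free OVA in blue; bars are 95% counting intervals and dotted lines mark 1.5-fold either way. Ccl6 stands at 6.30 and 4.27, Ccl22 at 0.60 and 0.73, and Cxcl16 at 1.15 and 1.16.

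Of the 10 genes, 5 had enough counts for a ratio in this gate (at least 50 CPM and 30 UMIs in the higher library). Against citrate buffer, LysoPS-OVA was higher for 2 of the 5 (Ccl5 and Ccl6) and lower for 1 (Ccl22), where 3.93% and 4.25% of the 2777 genes measured passed the same limits. The median log2 ratio was 0.20 over the 5 genes and −0.05 over all 2777. Free OVA over citrate buffer gave 1 of 5 higher (Ccl6) and none lower, beside 1.25% and 12.3% of 2639 genes. LysoPS-OVA over free OVA gave none of 5 in either direction, beside 14.0% higher and 0.941% lower of 2550 genes, and all 5 ratios lay between 0.82 and 1.47. The 3 comparisons share libraries.

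Within the migratory dendritic cell gate the ligands were not spread alike over barcodes. In thinned barcodes with Ccl17, Ccl22 was also found in 27 of 41 in LysoPS-OVA (65.9%), 87 of 140 in free OVA (62.1%) and 68 of 102 in citrate buffer (66.7%). In barcodes without Ccl17 it was found in 25.8%, 26.2% and 35.5%. The neighbouring Ccr4 ligands therefore coincided in the same barcodes in each library. Ccl5 went the other way: it was found in 63.4%, 61.4% and 76.5% of barcodes with Ccl17, against 85.2%, 85.0% and 84.4% of those without. The 95% intervals of these shares were apart in LysoPS-OVA and free OVA and overlapped in citrate buffer. Mean Ccl5 UMIs per barcode were 4.05, 7.19 and 5.23 with Ccl17, against 12.9, 12.0 and 8.22 without.

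Barcodes with Ccl6 were instead rich in Ccl5. Their mean Ccl5 UMIs were 17.3 in LysoPS-OVA, 22.7 in free OVA and 11.8 in citrate buffer, against 11.9, 10.98 and 7.90 in barcodes without Ccl6. Ccl5 was found in 94.5%, 95.7% and 91.3% of Ccl6-positive barcodes, against 82.9%, 82.8% and 83.6% of Ccl6-negative ones. The 95% intervals of these shares were apart in free OVA and overlapped in LysoPS-OVA and citrate buffer. Ccl17 was found in 1 of 55 (1.82%), 4 of 115 (3.48%) and 0 of 23 (0%) Ccl6-positive barcodes, and in 6.57%, 6.88% and 8.41% of Ccl6-negative ones. The 95% intervals of these Ccl17 shares overlapped in each library, so no difference in Ccl17 is read from this split. These splits compare barcodes of 1 library at equal depth and are given as descriptions, since barcodes are not replicates.

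**Figure D3:**
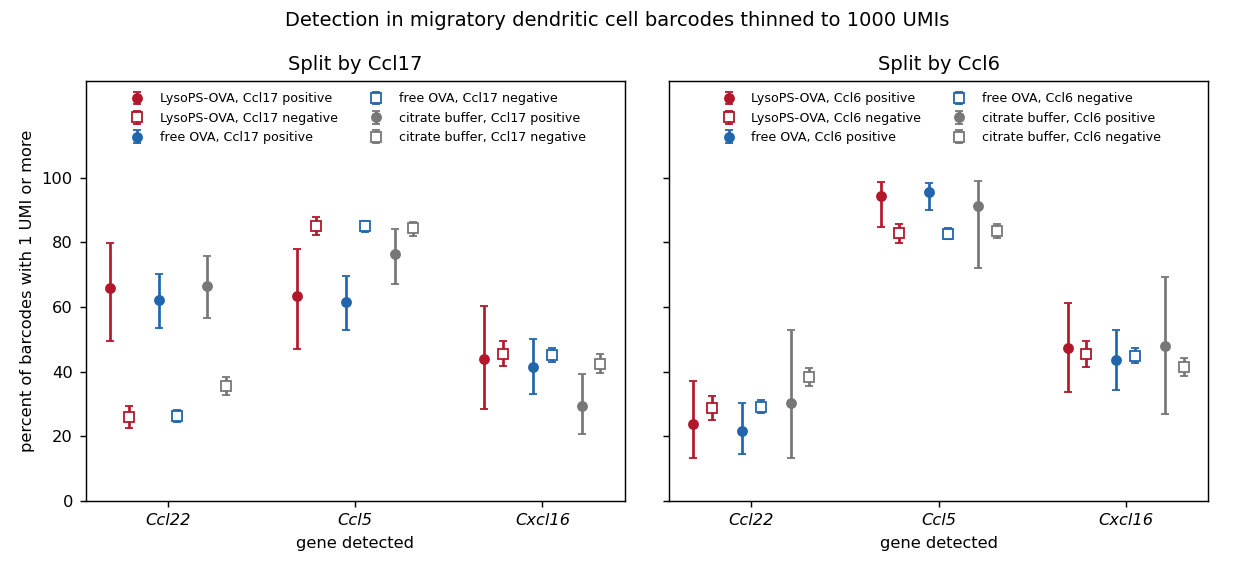
Percent of migratory dendritic cell barcodes, thinned to 1000 UMIs, in which Ccl22, Ccl5 or Cxcl16 was detected, split by Ccl17 (left) or Ccl6 (right); filled circles are barcodes positive for the splitting gene, open squares negative, bars 95% binomial intervals, and colours the 3 libraries. With Ccl17, Ccl22 is detected in 62.1 to 66.7% of barcodes and without it in 25.8 to 35.5%.

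Outside the migratory gate, Ccl5 was read against its level in B cells as a background, and the source of the UMIs in B cells was not tested. B cells, which should lack Ccl5, had 79.5 CPM in LysoPS-OVA, 120 CPM in free OVA and 122 CPM in citrate buffer, or 0.712%, 1.14% and 1.69% of the level in migratory dendritic cells. Their thinned share with Ccl5 was 4.51%, 6.33% and 7.89%. Most of those UMIs were in few B barcodes: 1376 of 2094, 1976 of 3064 and 1194 of 2190 were in barcodes with 5 Ccl5 UMIs or more. Counting only barcodes under 5 UMIs, B cells had 27.3, 42.6 and 55.7 CPM, CD8 T cells 24.4, 38.4 and 49.2 CPM, CD4 T cells 25.7, 37.8 and 51.1 CPM, and regulatory T cells 32.8, 41.7 and 45.4 CPM. Under this cut Ccl5 was alike across these lymphocyte gates within a library and highest in citrate buffer. The cut takes out the barcodes richest in Ccl5 by construction, so no shared source is read from the likeness. It is in raw UMIs, and B cells were shallowest in citrate buffer (median 3473 UMIs, against 4351 in LysoPS-OVA and 4758 in free OVA). The order of libraries thus cannot be told apart from depth. The B cell level in LysoPS-OVA was 0.65-fold that in citrate buffer (0.61 to 0.69), just past 1.5-fold before but within it after the 10 CPM were added (log2 −0.57). It was the 1 gene of the 10 measurable in B cells, where 1.36% of 3456 genes were called higher and 0.897% lower in that comparison. Plasma cells should also lack Ccl5. They had 11.3, 293 and 218 CPM on 2, 110 and 49 UMIs, in gates of 21, 37 and 29 barcodes. These levels were 0.142, 2.44 and 1.78 times those of B cells in the same order of libraries. The B cell level is thus 1 measure of background and not its upper bound.

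In all, 3 T and NK gates were at 3.50 times the B cell level or more in every library. CD4, regulatory and the remaining CD8 T cells were above it in some libraries only. CD8 T cells with a cytotoxic gene had 596 CPM of Ccl5 in LysoPS-OVA (570 to 622), 421 CPM in free OVA (395 to 448) and 444 CPM in citrate buffer (423 to 467). Gamma delta T cells had 1193, 1264 and 1512 CPM in gates of 48, 26 and 33 barcodes, with overlapping intervals. NK cells had 2582 CPM (16 barcodes), 1687 CPM (11 barcodes) and 5167 CPM (42 barcodes), and their intervals did not overlap. NK barcodes carried none of the 5 gate markers of migratory dendritic cells in LysoPS-OVA and free OVA, and 11 UMIs of 3 of them in citrate buffer. In CD8 T cells without a cytotoxic gene, Ccl5 was at 53.6 CPM in LysoPS-OVA, 215 CPM in free OVA and 96.3 CPM in citrate buffer. The first and last of these are below the B cell level of the same library and are read as background. The free OVA value was 1.79 times the B cell level of that library, below the 2.44 times of its plasma cells. All 3 comparisons of this gate nonetheless passed the limit: LysoPS-OVA was lower than citrate buffer (0.56-fold, 0.41 to 0.74), where 1.59% of 3403 genes were called higher and 3.97% lower. It was also lower than free OVA (0.25-fold, 0.18 to 0.34), where 1.85% of 3299 genes were called higher and 2.91% lower. Free OVA was higher than citrate buffer (2.23-fold, 1.77 to 2.81), where 1.60% of 3446 genes were called higher and 4.96% lower. The 5 highest barcodes held 70.1%, 79.9% and 45.4% of the UMIs behind these values. Per UMI of Nkg7, a cytotoxic granule gene that helped to choose the gate, the CD8 T cells with a cytotoxic gene held 1.13, 0.97 and 0.82 Ccl5 UMIs in LysoPS-OVA, free OVA and citrate buffer.

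**Figure D4:**
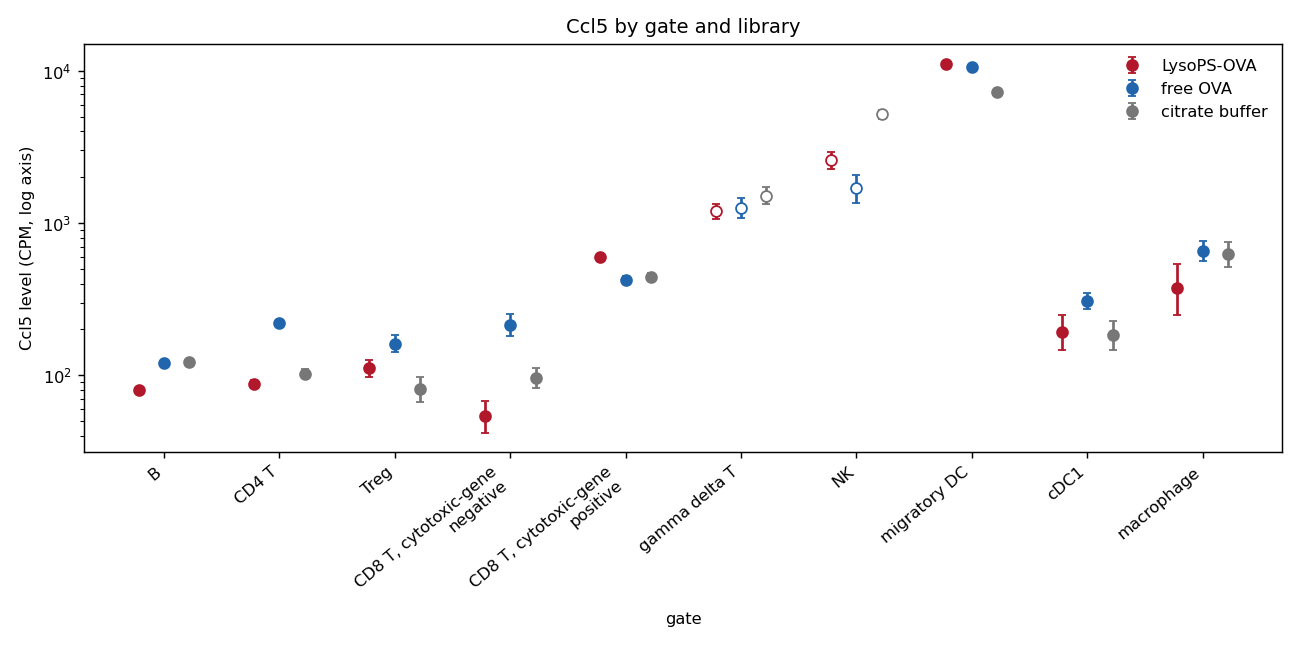
Ccl5 level (CPM, log axis) in 10 gates for LysoPS-OVA (red), free OVA (blue) and citrate buffer (grey); bars are 95% Poisson intervals and open points are gates under 50 barcodes. B cells sit at 79.5 to 122 CPM, and migratory dendritic cells at 7243 to 11165 CPM.

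In the whole CD8 T cell gate (726, 413 and 1004 barcodes), Ccl5 was at 450 CPM in LysoPS-OVA (430.5 to 469), 374 CPM in free OVA (353 to 397) and 332 CPM in citrate buffer (316.5 to 348). The intervals, which leave out the spread between barcodes, were apart, and LysoPS-OVA was the highest. Its ratio to citrate buffer was 1.35 (1.27 to 1.44), within the limit, beside 1.09% of 3305 genes called higher and 1.21% lower. Against free OVA the ratio was 1.20 (1.12 to 1.29), also within it, beside 0.380% higher and 0.317% lower of 3157 genes. After subtraction of the B cell level of the same library the levels were 370, 254 and 209 CPM, and the ratio became 1.77, past the limit. The 3 gate rules tried before the one used here, all chosen after the data were seen, gave log2 ratios of 0.60 to 1.25, also past the limit, against 0.43 here. The thinned share with Ccl5 ran against the level, at 6.75% (5.03 to 8.83%), 10.2% (7.43 to 13.5%) and 8.86% (7.18 to 10.8%), so no order is read from it. The 5 highest barcodes held 34.0%, 44.7% and 40.4% of the UMIs. In CD8 T cells with a cytotoxic gene, the ratio to citrate buffer was 1.34 (1.26 to 1.43) and to free OVA 1.42 (1.31 to 1.53), both within the limit.

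Ccl5 in CD4 T cells was 1.10 times the B cell level of the same library in LysoPS-OVA, 1.84 times in free OVA and 0.836 times in citrate buffer, and in regulatory T cells 1.39, 1.34 and 0.660 times. Plasma cells of free OVA, at 2.44 times, were above both T cell values of that library. CD4 T cells had 87.2 CPM in LysoPS-OVA, 220 CPM in free OVA and 102 CPM in citrate buffer. LysoPS-OVA was past the limit below free OVA (0.40-fold, 0.37 to 0.43), where 0.282% of 3192 genes were called higher and 0.251% lower. Free OVA was past it above citrate buffer (2.15-fold, 1.98 to 2.34), where 0.688% of 3344 genes were called higher and 1.17% lower. LysoPS-OVA over citrate buffer was 0.85-fold (0.78 to 0.93), within the limit, beside 1.02% higher and 0.987% lower of 3343 genes. In LysoPS-OVA 39.6% of the 1067 UMIs were in 5 barcodes, and in free OVA 34.0% of 1637. Regulatory T cells had 111, 161 and 80.9 CPM, and free OVA was 1.99-fold citrate buffer (1.57 to 2.53), beside 2.13% of 3656 genes called higher and 4.95% lower. Of these UMIs, 51.4 to 58.5% were in 5 barcodes.

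Ccl5 was lower in macrophages of LysoPS-OVA, a small and shallow gate. These barcodes (55, 176 and 127, at medians of 1001, 1194 and 1286 UMIs) had 372 CPM in LysoPS-OVA (247 to 537), 656 CPM in free OVA (560 to 765) and 621 CPM in citrate buffer (514 to 745). The ratio to citrate buffer was 0.60 (0.38 to 0.91), on 28 against 117 UMIs, where 20.4% of 681 genes were called lower. Malat1 was under 0.5% of UMIs in 83.6%, 81.8% and 68.5% of macrophage barcodes and in 89.8%, 94.8% and 88.5% of cDC1 barcodes, and its part in these values was not tested. In cDC1, LysoPS-OVA had 194 CPM and free OVA 307 CPM, against 184 CPM in citrate buffer. Free OVA was past the limit above citrate buffer (1.67-fold, 1.29 to 2.16; 2.85% of 2284 genes were called higher and 27.7% lower), and LysoPS-OVA past it below free OVA (0.63-fold, 0.47 to 0.84; 11.1% of 1642 genes were called higher and 7.25% lower).

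Cxcl9, an interferon-gamma-induced ligand of Cxcr3, belonged to cDC1. These barcodes (88, 248 and 130) had 1056 CPM in LysoPS-OVA (944 to 1178), 1280 CPM in free OVA (1204 to 1360) and 862 CPM in citrate buffer (778 to 952). Levels in migratory dendritic cells of the same libraries were 14.8, 33.2 and 19.7 CPM, and in B cells 1.97, 1.999 and 3.64 CPM. The cDC1 level was thus far above that of the migratory gate in each library. LysoPS-OVA was 1.22-fold citrate buffer (1.05 to 1.42) and free OVA 1.48-fold (1.32 to 1.67), both within the limit. The thinned shares with Cxcl9 were 41.9%, 44.8% and 40.8%, with overlapping intervals. None of the 3 genes measurable in cDC1 (Ccl5, Cxcl9 and Cxcl16) was called in LysoPS-OVA over citrate buffer, where 1.22% of 1965 genes were called higher and 15.2% lower. The direction of the Cxcl9 ratio was not stable: it was −0.26 on the log2 scale with a stricter gate, −0.93 in whole-cell-like barcodes and −0.18 without the 5 highest barcodes, against 0.29.

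Macrophages ranked next after cDC1 for Cxcl9 and highest for Cxcl10 among gates of 50 barcodes or more. Cxcl9 was at 624 CPM in LysoPS-OVA (458 to 830), 232 CPM in free OVA (176 to 300) and 218 CPM in citrate buffer (156 to 295.5). LysoPS-OVA stood apart from both, at 2.87-fold citrate buffer (1.84 to 4.47) and 2.69-fold free OVA (1.79 to 4.02), on 47 UMIs in 14 barcodes. Against free OVA 7.24% of 677 genes were called higher and 16.2% lower. Of 3 measurable genes, 1 was called higher (Cxcl9) and 2 lower (Ccl5 and Cxcl16) in LysoPS-OVA over citrate buffer, beside 4.99% higher and 20.4% lower of 681 genes. The mean of per-barcode levels gave a log2 ratio of 0.70 for Cxcl9, against 1.48 from summed UMIs. Cxcl16 had 3 UMIs in LysoPS-OVA, against 33 in citrate buffer, and the interval of its ratio ran over 0.045 to 0.72.

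Cxcl10 rested on very few barcodes. Macrophages had 332 CPM in LysoPS-OVA (25 UMIs in 7 barcodes), 128.1 CPM in free OVA (32 UMIs in 17) and 138 CPM in citrate buffer (26 UMIs in 12). A single barcode held 14 of the 25 UMIs in LysoPS-OVA, and without the 5 highest barcodes of each library the log2 ratio to citrate buffer turned to −0.30, against 1.21. In cDC1 Cxcl10 had 5, 28 and 3 UMIs, and in migratory dendritic cells 2, 11 and 3.

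Ifng, which induces the Cxcr3 ligands, was not detected in migratory dendritic cells of any library. CD8 T cells with a cytotoxic gene held 5 Ifng UMIs in LysoPS-OVA, 0 in free OVA and 0 in citrate buffer. Of the genes known to respond to interferon-gamma, 10 were measurable in migratory dendritic cells and none passed the limit in LysoPS-OVA over citrate buffer in either direction (median log2 −0.01, against −0.05 over all genes). Gbp2, a guanylate-binding protein, had 246 CPM in LysoPS-OVA and 234 CPM in citrate buffer. The list also held Ifngr1, a receptor chain for interferon-gamma rather than a response gene, which is counted here and in the T cells below. In cDC1 it was the 1 of 7 listed genes that passed, so no response gene did. Ifngr1 was at 295 CPM in LysoPS-OVA against 193 CPM in citrate buffer, or 1.53-fold (1.12 to 2.07), beside 1.22% higher and 15.2% lower of 1965 genes. None of 3 was called in macrophages. Iigp1, an interferon-inducible GTPase, was the 1 called of 9 in CD8 T cells, at 56.3 CPM in LysoPS-OVA against 28.0 CPM in citrate buffer, beside 1.09% higher and 1.21% lower of 3305 genes. In LysoPS-OVA over free OVA, none of 10 measurable genes of the list, Iigp1 among them, was called in CD8 T cells. There 0.380% of 3157 genes were called higher and 0.317% lower. Against citrate buffer, Iigp1 was also the 1 called of 14 in regulatory T cells, at 151 CPM against 65.5 CPM. In regulatory T cells 3.04% of 3683 genes were called higher and 2.09% lower in LysoPS-OVA over citrate buffer.

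Ccl3 and Ccl4, neighbouring ligands that activated cytotoxic cells release, were concentrated in single barcodes. In CD8 T cells with a cytotoxic gene, Ccl4 had 79.2 CPM in LysoPS-OVA (70.0 to 89.3), 9.58 CPM in free OVA (6.005 to 14.5) and 12.96 CPM in citrate buffer (9.49 to 17.3). LysoPS-OVA was far above both, at 6.11-fold citrate buffer (4.46 to 8.55) and past the limit, beside 1.08% higher and 1.27% lower of 3318 genes. It was 8.27-fold free OVA (5.35 to 13.4), beside 0.502% higher and 0.377% lower of 3186 genes. But 121 of the 268 UMIs were in 1 barcode and 92.9% in 5, and the gene was seen in 19, 8 and 14 barcodes of 498, 297 and 600. Without the 5 highest barcodes of each library the log2 ratio was 0.32, against 1.96, and was no longer past the limit. Ccl3 had 25, 5 and 6 UMIs in this gate, 22 of the 25 in 1 barcode. In NK cells of citrate buffer Ccl4 had 31 UMIs (196 CPM) in 5 barcodes.

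Single barcodes also set Ccl4 elsewhere. Of 223 Ccl4 UMIs in B cells of free OVA, 195 were in 1 barcode; LysoPS-OVA B cells had 8 Ccl4 UMIs and citrate buffer B cells 18. In regulatory T cells of free OVA 42 of 43 were in 1 barcode. Such counts describe a barcode, not a gate.

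**Figure D5:**
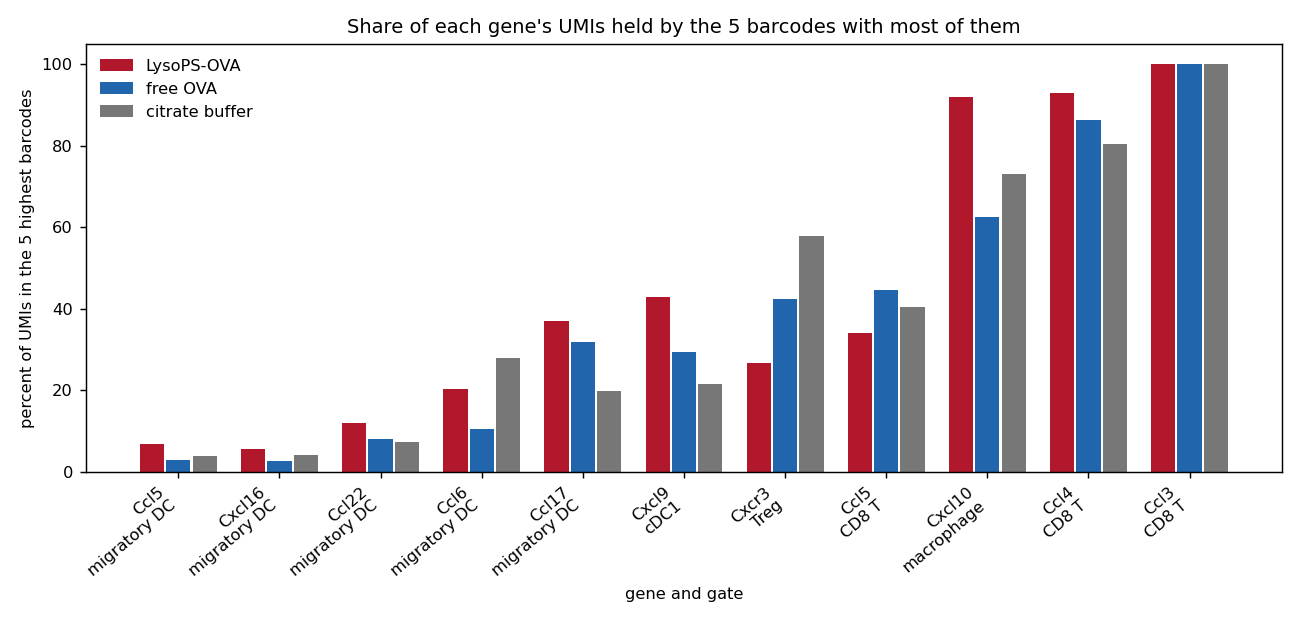
Percent of a gene's UMIs that the 5 barcodes with most of them hold, by gene and gate, for LysoPS-OVA (red), free OVA (blue) and citrate buffer (grey). Ccl5 in migratory dendritic cells is at 2.96 to 6.74%, Ccl4 in CD8 T cells at 80.4 to 92.9%, and Ccl3 in CD8 T cells at 100%.

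Among the genes that accompany Ccl5 in cytotoxic cells, 6 were measurable in CD8 T cells with a cytotoxic gene in LysoPS-OVA over citrate buffer. Of these 1, Xcl1, was called, beside 1.08% higher and 1.27% lower of 3318 genes. Gzma and Gzmk, of the same list, were under 50 CPM in every library and so not measurable. Gzma had 1.48 CPM in LysoPS-OVA and 0.436 CPM in free OVA, against 42.0 CPM in citrate buffer. Gzmk had 11.5, 9.58 and 6.20 CPM in the same order. How far few barcodes set the Xcl1 and Gzma values was not tested. Xcl1, the ligand by which CD8 T and NK cells draw cDC1, had 59.1 CPM in LysoPS-OVA and 13.5 CPM in free OVA, against 20.003 CPM in citrate buffer. LysoPS-OVA was 2.96-fold citrate buffer (2.24 to 3.93) and 4.38-fold free OVA (2.99 to 6.62), beside 1.08% of 3318 and 0.502% of 3186 genes called higher. The split of the gate bears on these values: cytotoxic-gene-negative CD8 T cells had 0 Xcl1 UMIs in LysoPS-OVA and 6 in free OVA, against 58 in citrate buffer. In the whole CD8 T cell gate Xcl1 was at 43.2 CPM in LysoPS-OVA and 12.5 CPM in free OVA, against 24.6 CPM in citrate buffer, below the level at which ratios were called. Of the 25 further chemokine ligands in the files, Xcl1 alone was measurable in this gate. In migratory dendritic cells, none of those 25 reached the counts needed, and of the 22 further receptors Ccr7, which guides dendritic cells to the node, did, at 540 CPM in LysoPS-OVA and 538 CPM in citrate buffer.

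Cxcr3, the receptor of Cxcl9 and Cxcl10 on activated T and NK cells, was sparse. Regulatory T cells had 25.2 CPM in LysoPS-OVA (19.0 to 32.7), 22.2 CPM in free OVA (15.3 to 31.2) and 14.6 CPM in citrate buffer (8.81 to 22.9), with overlapping intervals. CD8 T cells with a cytotoxic gene had 13.01, 13.5 and 14.9 CPM, and CD4 T cells 8.09, 4.85 and 5.05 CPM. NK cells had 67.1, 38.8 and 56.8 CPM on 6, 2 and 9 UMIs. In the whole CD8 T cell gate LysoPS-OVA over citrate buffer gave a log2 ratio of −0.18 on 47 against 67 UMIs, and the intervals of the levels overlapped. B cells had 0.455, 0.627 and 1.79 CPM, and migratory dendritic cells 0.646, 0.391 and 1.46 CPM. Among these T and NK gates the order of Cxcr3 was NK, regulatory T, cytotoxic-gene-positive CD8 T and CD4 T cells in LysoPS-OVA and free OVA. Neighbours in that order overlapped, apart from regulatory against CD8 T cells in LysoPS-OVA and CD8 against CD4 T cells in free OVA. Plasmacytoid dendritic cells had 2, 0 and 5 Cxcr3 UMIs in 4, 4 and 13 barcodes. In cDC1 Cxcr3 was at 13.1, 18.4 and 8.89 CPM on 4, 15 and 4 UMIs.

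Ccr4 and Cxcr6 lay in lymphocytes rather than in migratory dendritic cells. Ccr4, the receptor of Ccl17 and Ccl22, was at 14.4, 12.8 and 16.2 CPM in regulatory T cells, with overlapping intervals. Cxcr6, the receptor of Cxcl16, was at 49.96, 39.2 and 45.9 CPM in CD8 T cells with a cytotoxic gene and at 112, 116 and 82.0 CPM in NK cells. In migratory dendritic cells both receptors were at 0 to 2.55 CPM. Ccr1 had 0, 6 and 0 UMIs in migratory dendritic cells, and Ccr3 at most 3 UMIs in any gate.

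Genes with the pattern most like each ligand were ranked by Pearson correlation of log2(CPM + 10) over 24 gate-by-library profiles, among 5463 genes. The profiles share libraries and depth, so the values are descriptions. Ccl5 was most like Fscn1 (r = 0.93), which is a gate marker, then Tmem70 and Gyg (0.92 each). Ccl22 was most like Aldh1a2 (0.99), the retinoic acid-synthesising enzyme of gut dendritic cells, then Rhoc and the gate marker Nudt17 (0.98 each). Aldh1a2 also led for Ccl17, with Cdkn2b and Arhgap28 (0.98 each). Cxcl16 was most like Csf2rb (0.98), a cytokine receptor chain of myeloid cells, with Polr2g and Ube2e3 (0.98 each). Cxcl9 was most like Clec12a (0.99), then Psap and Slamf8 (0.98 each), and Ccl6 like Gpr137b (0.92), Pet100 and Tbcb (0.91 each). For Ccl4 the highest value was 0.62, for Med30, followed by Derl1 (0.62) and Hscb (0.55). Ccl3, Cxcl10 and Cxcr3 had under 100 UMIs in their highest gate and were not ranked.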

How the data were processed

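RNA was measured by 10x Genomics 3′ single-cell sequencing, 1 library per feeding with 10000 cells loaded. The deposited matrices hold raw UMI counts per gene and barcode, and the submitters' processing notes name Cell Ranger 7.2.0 and mm10. Barcodes were kept at 300 genes or more and 10% mitochondrial UMIs or less. Doublets called by Scrublet (scanpy 1.11.5) in each library were removed: 7.49% of passing barcodes in LysoPS-OVA, 5.92% in free OVA and 17.0% in citrate buffer, against expected shares of 16.7%, 22.9% and 23.1%. The expected shares were set at 0.8% per 1000 barcodes in the library, not per 1000 cells loaded.

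A barcode entered a gate when 1 lineage had at least 3 marker UMIs from 2 markers and 70% of all marker UMIs, after weights of 1 for B, 2 for T and NK and 3 for myeloid and stromal markers. This rule was picked last of 4, after the data and the values of the 10 genes had been seen. The 3 other rules were tried before it and are alternatives below, and the calls of Ccl5 in CD8 T cells and migratory dendritic cells depend on which rule is used. Of kept barcodes, the rule left 3979 (LysoPS-OVA), 9820 (free OVA) and 8800 (citrate buffer) ungated, and the others 4300 to 8575, 9300 to 12117 and 8025 to 11209. CD8 T cells with 2 UMIs or more from 2 or more of 8 cytotoxic genes were called cytotoxic-gene positive, or with a cytotoxic gene. The other CD8 T cells were called cytotoxic-gene negative and can still hold UMIs of these genes. The cell-type names rest on this gating and not on an annotation by the authors. The 10 genes, the gene lists and the comparisons were chosen with earlier results of these data known, and the whole-cell-like limits and motif letters after the data and promoter windows had been read.

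UMIs were summed per gate and divided by the gate's total (CPM). Because a 3′ count does not scale with transcript length, CPM was not divided by length and levels are compared within a gene. A gene was measurable in a comparison at 50 CPM and 30 UMIs in the higher library, and called when log2(CPM + 10) differed by 1.5-fold or more. Folds printed as ratios carry no added CPM. Gates of 50 barcodes or more in each library were compared. Ratio intervals are conditional binomial and level intervals Poisson, both exact at 95%, and shares have exact Clopper-Pearson intervals. UMIs are molecules, but level and ratio intervals cover counting error only and not the spread between barcodes of a gate. No interval covers the spread between mice. Named beyond the 10 genes are receptors of the ligands, the 3 most similar genes per ligand with 100 UMIs or more in its highest gate, and the genes of each list farthest from 0. The calling steps were tested on simulated counts. Numbers were computed with Python 3.11.15, numpy 2.4.6, scipy 1.17.1 and pandas 2.3.3. Some genes that these rules would name are not reported here.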

Additional observations from a re-analysis of the deposited data

Results flagged for a closer look

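Ccl5 moved in opposite directions in a pair of gates under the same comparison. In LysoPS-OVA over citrate buffer its log2 ratio was 0.62 in migratory dendritic cells and −0.74 in cytotoxic-gene-negative CD8 T cells, both past the limit. Levels were 11165 CPM against 7243 CPM in the dendritic cells and 53.6 CPM against 96.3 CPM in the CD8 T cells. The difference between the gates was not tested, since each gate has 1 library per feeding. Both CD8 T cell levels are below those of B cells in the same library (79.5 and 122 CPM), and after the B cell level is subtracted no Ccl5 is left in either.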

How the results depend on the processing

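No paired analysis was possible because each feeding has 1 library, and for the same reason no replicate could be left out. The choices varied were the gate, doublet removal, the barcode filter, scaling, the pseudocount, background subtraction, thinning depth and fold; leaving out 5 barcodes and all 4 gate rules were chosen after seeing the data. All log2 ratios here are LysoPS-OVA over citrate buffer unless another pair is named. Of 85 alternative values for the main results, 71 stayed within the counting interval of the reported value, or within 1.5 times for counts of genes, and 14 moved. The ratio of Ccl5 in CD8 T cells was 0.43 and became 0.53 from mean per-barcode CPM, 0.79 with the B cell level subtracted and 0.56 without the 5 highest barcodes. It became 0.60 with the gate at 80% of unweighted marker UMIs, 1.13 with the gate that allows no second lineage and 1.25 with the gate scaled to library means. In B cells Ccl5 was −0.57 and became −0.23 from mean per-barcode CPM, −0.83 with no second lineage allowed and −0.45 with the scaled gate. Whole-cell-like barcodes gave −1.08 for Ccl22 (reported as −0.72) and −1.58 for Ccl17 (reported as −0.14) in migratory dendritic cells, and Ccl17 was −0.44 without the 5 highest barcodes. Genes past 1.5-fold in migratory dendritic cells numbered 227, and 681 with no filter on low counts or 42 at 2-fold. Of 185 alternative values for other results, 122 stayed, 61 moved and 2 with a ratio past 1.5-fold changed sign. Cxcl10 in macrophages became −0.30 without the 5 highest barcodes, and Ccl4 in B cells, free OVA over citrate buffer, became −0.0031, against 0.77. Neither gene had the counts to be measurable in its gate, so neither ratio was a call. Ratios within the limit also changed sign, among them Cxcl9 in cDC1, which was 0.29 and became −0.26 with a stricter gate, −0.93 in whole-cell-like barcodes and −0.18 without the 5 highest barcodes. The cause of these shifts was not tested, except that leaving out 5 barcodes removes their UMIs by construction. Depth limits Ccl3, Cxcl10 and Cxcr3, and all values in gates of few barcodes.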
